A study of Mus musculus with 16 samples.

Results

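Complement and coagulation are the protein cascades of blood plasma that tag and lyse microbes and that form and dissolve clots. Most of their proteins are made by hepatocytes and secreted, the proteases mostly as zymogens that a preceding protease of the cascade cleaves. Complement is started by the C1 proteases, by mannose-binding lectins with their MASP proteases or by the alternative pathway, and ends in the membrane attack complex. Coagulation is started by tissue factor with factor VII or by the contact proteases, meets at factor X and thrombin, and ends in fibrin, with inhibitors and plasmin as counterweights. The 41 genes described here are 21 complement and 20 coagulation genes, taken from a list of members of both cascades. The list was chosen with earlier results of these data known, so that counts over it describe these genes only. A gene was represented by the brightest of its probe sets that name no other gene, which gave a level for 37 of the 41, among 18194 genes on the array measured in this way. C3, Cfd and Cpb2 were not analysed here, and C4b shared its probe set with C4a, so that no level is given for it.

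Liver RNA was measured in 16 male mice of 12 to 20 weeks, 1 array per mouse and 4 mice per group. No protein was measured here, so that every fall given below is one of mRNA in liver. The groups were PPARα-null mice (129S4/SvJae) fed 0.1% Wy14643, a synthetic PPARα agonist, for 5 days, PPARα-null mice on control food, wild-type mice (129S1/SvImJ) fed the same Wy14643 diet, and wild-type mice on control food. PPARα is a nuclear receptor of hepatocytes that fatty acids and fibrate drugs activate, and the null allele was present in every cell of the animal. The genotypes also differed in substrain, so that receptor and substrain cannot be told apart wherever they are compared. Levels are log2 of the deposited intensity and are given per array in the order of replicates 1 to 4. Between groups, levels were compared within a probe set, or as a mean or ratio of probe sets taken within each array. A gene was called at a Benjamini-Hochberg adjusted p under 0.01 over all probe sets, from limma, and a fold over 1.5.

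Arrays of a group correlated at 0.987 to 0.995, and array medians lay between 2.15 and 2.24, so that every complement and coagulation gene measured was well above the middle of the array. Ppara was lower in PPARα-null than in wild-type mice on Wy14643, at -1.15 on its brightest probe set, where the difference on control food, -0.63, was not called (adjusted p = 0.14). Its other 2 probe sets were called lower on both diets, at -1.43 and -2.20 on Wy14643 and at -1.38 and -1.59 on control food. Of the hepatocyte markers, Alb, Ttr, Apoa1 and Hnf4a were not called in the wild-type response and Ttc36 was lower, at -1.02. Their summed intensity was 42800 to 44700 in wild-type mice on Wy14643, against 49800 to 50900 on control food. Kupffer cell markers were called lower in 6 of 8 cases, with sums of 445 to 531 on Wy14643, against 802 to 972 on control food. Stellate cell markers were lower in 3 of 7 cases (sums of 1230 to 1260, against 1870 to 2000), and of 7 sinusoidal endothelial markers 1 was lower and 1 higher (778 to 890, against 1020 to 1230). Of 3 exocrine pancreas genes 1 was called lower and 0 higher, although the median difference of the 3 was 1.42. Their sums were 97.8 to 936 on Wy14643, against 624 to 693 on control food. No marker of cholangiocytes, lymphocytes and neutrophils, platelets or adipocytes was called. In liver homogenate, fewer cells of a type and less RNA per cell cannot be told apart, and the part of these shifts in the results below was not tested.

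In wild-type mice, the mRNA of most measured genes of both cascades was lower on Wy14643. Of the 37 measured genes 30 were called lower and 0 higher, against 6.74% of all 18194 genes called lower. Many of those genes are dim. In a fit restricted to probe sets with a mean log2 above 6, as all 37 had, 847 of 5170 genes were called lower, with 30 members again. All 37 differences were below 0, with a median of -0.996 on the log2 scale, where the median of all genes was -0.03. The fall was over 2-fold for 18 genes, over 4-fold for 9 and over 8-fold for 3, and the last were C8b, C8a and C1s1. The arrays of the 2 diets did not overlap for 35 of the 37 genes, a count that was not made over all genes.

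**Figure D1:**
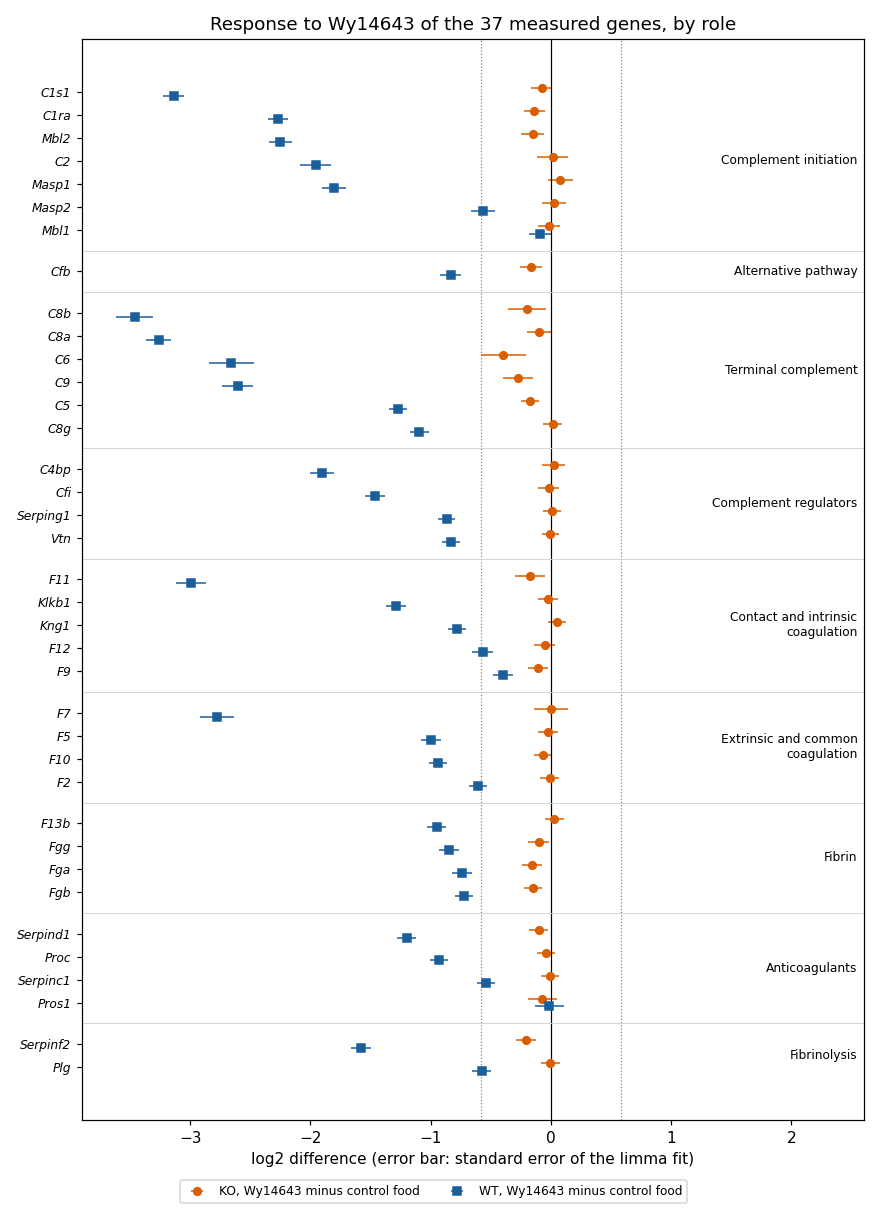
Response to Wy14643 of each of the 37 measured genes, as the log2 difference from control food (x axis), in PPARα-null mice (KO, orange circles) and wild-type mice (WT, blue squares), grouped by role (y axis). Error bars are standard errors of the limma fit with 4 arrays per group, and dotted lines mark the 1.5-fold limit. All PPARα-null values lie within it, from -0.39 to 0.08, whereas the wild-type values reach -3.46.

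Genes of the initiating proteins of complement fell in 5 of 7 cases, with a median difference of -1.96. C1s1 encodes C1s, the protease that cleaves C4 and C2. Its level was 7.06, 7.40, 7.20 and 7.25 in wild-type mice on Wy14643, against 10.31, 10.42, 10.34 and 10.38 on control food. All 4 Wy14643 arrays lay far below all 4 control arrays, a fall of 8.78-fold (-3.13, adjusted p = 4.36e-14). C1ra encodes C1r, the protease that activates C1s, and had 7.97, 7.86, 7.89 and 7.92 on Wy14643, against 10.10, 10.16, 10.11 and 10.34 on control food. This was a fall of 4.82-fold (-2.27, adjusted p = 1.67e-12), again without overlap. C2, whose product is a part of the classical C3 convertase, differed by -1.96, and its other 2 probe sets by -1.68 and -1.71.

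The genes of both mannose-binding lectins were measured, of which 1 fell. Mbl2, the lectin that humans also have, had 8.24, 8.22, 8.11 and 8.07 on Wy14643, against 10.34, 10.47, 10.52 and 10.31 on control food, 4.76-fold lower (-2.25, adjusted p = 1.34e-11). Mbl1, its rodent relative, had 10.13, 10.22, 10.23 and 10.02 on Wy14643, against 10.35, 10.13, 10.12 and 10.36 on control food. The Mbl1 arrays overlapped, and the difference of -0.09 did not pass the test (adjusted p = 0.585). The proteases that travel with these lectins are Masp1 and Masp2. Masp1 was called lower at -1.80 on its brightest probe set and at -0.75 and -0.96 on a further 2, while 2 dim ones were not called (-0.39 and -0.41). Masp2, the protease that cleaves C4 and C2 in the lectin pathway, differed by -0.56 (adjusted p = 0.000379), without overlap but short of the 1.5-fold limit. Its dimmer probe set differed by -0.22, with overlapping arrays (adjusted p = 0.25). The brighter one passed that limit in 2 of 8 refits that left out an array, those without replicate 4 on Wy14643 (-0.63) or replicate 2 on control food (-0.60).

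Of the listed alternative pathway and C3 genes Cfb alone was measured. It encodes factor B, the protease of the alternative C3 convertase, and had 10.03, 9.96, 10.29 and 10.25 on Wy14643, against 10.93, 10.97, 10.90 and 11.05 on control food. The fall was 1.78-fold (-0.83, adjusted p = 1.75e-06), and the groups did not overlap.

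Terminal complement, which builds the membrane attack complex, fell in 6 of 6 cases, with a median difference of -2.63 and the 2 largest falls of the 37 genes. C8b had 6.93, 7.39, 7.78 and 7.74 on Wy14643, against 10.99, 10.72, 10.82 and 11.15 on control food (11-fold lower, -3.46, adjusted p = 2.1e-11). For C8a the levels were 8.52, 8.55, 8.93 and 8.54 on Wy14643, against 11.89, 11.81, 11.82 and 12.08 on control food (9.6-fold lower, -3.26, adjusted p = 1.68e-13). These genes encode the β and α chains of C8, the component that first inserts into the membrane, and in both the lowest control array stood over 2 log2 units above the highest Wy14643 array. C8g, which encodes the γ chain that is linked to the α chain, had 11.14, 11.10, 11.25 and 11.10 on Wy14643, against 12.23, 12.23, 12.27 and 12.24 on control food. Its fall was 2.13-fold (-1.09), so that the genes of all 3 chains of C8 were lower, with fitted differences between -3.46 and -1.09. The difference between chains was not tested for C8g.

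C6, a link of the complex between C5b and C8, had 6.73, 7.29, 7.51 and 7.09 on Wy14643, against 9.53, 9.68, 9.78 and 10.27 on control food. The fall was 6.31-fold (-2.66, adjusted p = 9.17e-09) and its arrays were the most scattered among the terminal components on control food. C9, which polymerizes into the pore, was called lower, at -2.60. C5, the precursor of the anaphylatoxin C5a and of the first piece of the complex, was called lower, at -1.27.

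Regulators of complement fell in 4 of 4 cases, with a median difference of -1.16. C4bp, the C4b-binding protein that speeds decay of the classical convertase, had 9.33, 9.67, 9.43 and 9.26 on Wy14643, against 11.36, 11.25, 11.32 and 11.39 on control food (3.74-fold lower, -1.90, adjusted p = 1.13e-10). Cfi, the protease that cuts C3b and C4b, averaged 10.56 ± 0.08 on Wy14643 and 12.02 ± 0.13 on control food (SD, n = 4 each), a difference of -1.46. Serping1, the C1 inhibitor that also blocks kallikrein and factor XIIa, averaged 11.12 ± 0.09 on Wy14643 and 11.99 ± 0.03 on control food, a difference of -0.87. Genes for inhibitors were among the genes that fell, as were those of the C1 proteases that the C1 inhibitor restrains. Vtn, or vitronectin, which binds the forming membrane attack complex and also the plasminogen activator inhibitor, was called lower, at -0.83, and at -1.03 on its other probe set.

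In the contact and intrinsic arm of coagulation 3 of 5 genes fell, with a median difference of -0.78. F11 encodes factor XI, the protease that activates factor IX. Its level was 6.78, 6.99, 7.24 and 7.25 on Wy14643, against 10.10, 9.95, 9.81 and 10.36 on control food, the largest fall of any coagulation gene measured (7.95-fold, -2.99, adjusted p = 8.34e-12). Klkb1, plasma prekallikrein, had 9.91, 9.83, 9.96 and 9.92 on Wy14643, against 11.20, 11.18, 11.13 and 11.25 on control food (2.44-fold lower, -1.29). Kng1, high-molecular-weight kininogen and the source of bradykinin, averaged 11.75 ± 0.03 on Wy14643 and 12.53 ± 0.05 on control food (-0.78), and its other probe set differed by -1.37. F12 and F9 missed the fold limit, at -0.57 (adjusted p = 0.000102) and -0.40 (adjusted p = 0.00198), though their arrays did not overlap. F12 passed the limit in 3 of 8 refits that left out an array, those without replicate 1, 3 or 4 on Wy14643 (down to -0.60).

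All 4 genes of the extrinsic and common steps fell, with a median difference of -0.97. F7, the protease that tissue factor binds, had 6.29, 6.19, 6.98 and 6.26 on Wy14643, against 9.06, 9.22, 9.32 and 9.23 on control food (6.86-fold lower, -2.78, adjusted p = 1.37e-10). Replicate 3 on Wy14643 stood apart at 6.98, yet lay over 2 log2 units below the lowest control array. F10, the factor X that factor VIIa activates, had 10.42, 10.35, 10.48 and 10.38 on Wy14643, against 11.30, 11.36, 11.34 and 11.39 on control food (1.92-fold lower, -0.94), and its dimmer probe sets differed by -1.25 and -1.48. F5, the cofactor of factor Xa, averaged 9.56 ± 0.05 on Wy14643 and 10.56 ± 0.09 on control food, a difference of -0.996. F2, or prothrombin, differed by -0.61 (adjusted p = 1.11e-05), just past the limit, and was no longer called without replicate 1 on Wy14643 (-0.58).

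Fibrin genes fell in 4 of 4 cases, between -0.72 and -0.95. Fgg, the γ chain of fibrinogen, had 12.56, 12.38, 12.61 and 12.38 on Wy14643, against 13.25, 13.32, 13.24 and 13.50 on control food (1.8-fold lower, adjusted p = 6.99e-07). Fga, the α chain, averaged 12.55 ± 0.03 on Wy14643 and 13.29 ± 0.11 on control food, a difference of -0.74. Fgb, the β chain, differed by -0.72, and the ratios between the 3 chains are given further on. F13b, the carrier subunit of the transglutaminase that crosslinks fibrin, was called lower, at -0.95.

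Anticoagulants divided, with 2 of 4 called. Serpind1, heparin cofactor II, an inhibitor of thrombin, had 10.50, 10.53, 10.64 and 10.49 on Wy14643, against 11.61, 11.83, 11.78 and 11.75 on control food (2.3-fold lower, -1.20, adjusted p = 2.65e-09). Proc, the protein C that inactivates factors Va and VIIIa, averaged 10.65 ± 0.10 on Wy14643 and 11.58 ± 0.01 on control food (-0.93). Serpinc1, or antithrombin, differed by -0.54 (adjusted p = 2.97e-05), without overlap but short of the fold limit. Pros1, the protein S that serves protein C as cofactor, had 7.13, 7.11, 6.81 and 7.22 on Wy14643, against 6.90, 7.14, 7.11 and 7.17 on control food. These arrays overlapped, and the difference of -0.01 did not pass the test (adjusted p = 0.963).

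Of the fibrinolysis genes, Serpinf2, the α2-antiplasmin that inhibits plasmin, had 10.18, 10.06, 10.11 and 10.03 on Wy14643, against 11.59, 11.71, 11.59 and 11.80 on control food (2.99-fold lower, -1.58, adjusted p = 1.29e-10). Plg, plasminogen itself, differed by -0.58 (adjusted p = 2.53e-05) and missed the fold limit narrowly. Without replicate 3 or 4 on Wy14643, or without replicate 1 or 3 on control food, Plg passed it (down to -0.61).

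**Figure D2:**
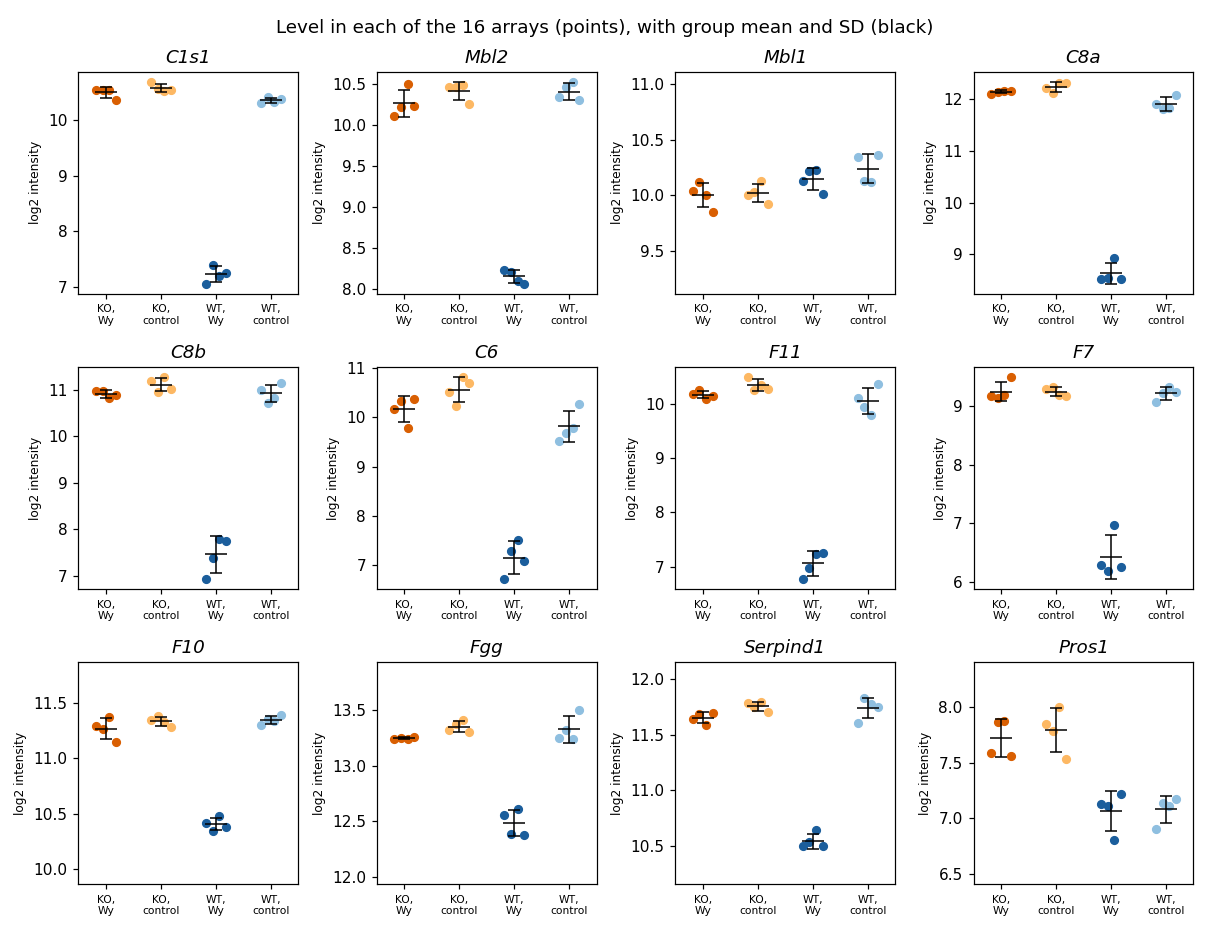
Log2 intensity (y axis) of 12 genes in each array (points), with the mean and SD of the 4 arrays of a group (black), for PPARα-null mice (KO) on Wy14643 (Wy) and on control food and wild-type mice (WT) on Wy14643 and on control food. The y axes differ between panels, and span at least 2 log2 units. In C1s1, Mbl2, C8a, C8b, C6, F11, F7, F10, Fgg and Serpind1 the wild-type arrays on Wy14643 lie below the other 12, in Mbl1 no group stands apart by the test, and in Pros1 the PPARα-null arrays lie above the wild-type arrays on both diets.

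Set side by side, complement genes were called lower in 16 of 18 cases with a median difference of -1.85, and coagulation genes in 14 of 19 cases with a median of -0.85. Over 2-fold falls were seen in 13 complement and 5 coagulation genes, and over 4-fold falls in 7 and 2. Relative to the wild-type control mean, the complement mean per array was -1.89 to -1.69 on Wy14643, against -0.05 to 0.11 on control food. The coagulation mean was -1.08 to -0.96 on Wy14643, against -0.04 to 0.06 on control food. The 2 cascades overlapped gene by gene, since F11 and F7 had larger fitted differences than 15 of the 18 complement genes, and Mbl1 a smaller one than 18 of the 19 coagulation genes. Counting Serping1 and Vtn, which act in both, under coagulation gave medians of -1.93 for complement and -0.85 for coagulation. No test was made on these averages.

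**Figure D3:**
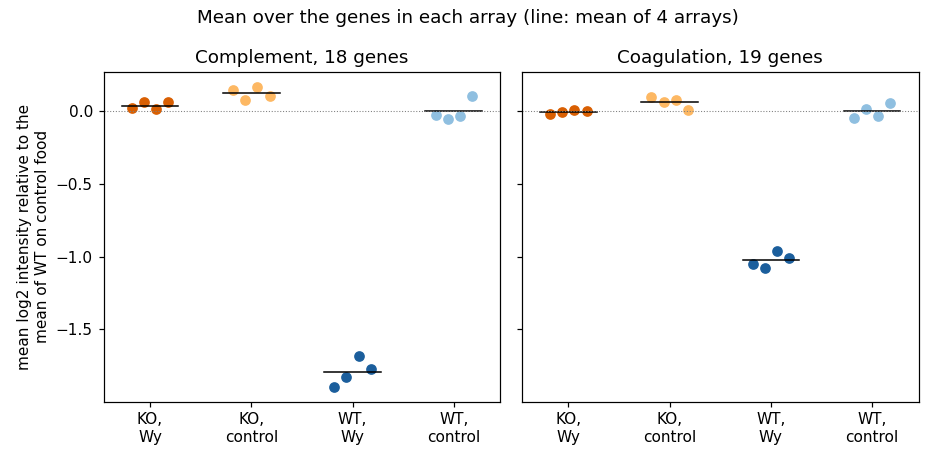
Mean log2 intensity over the 18 complement genes and the 19 coagulation genes in each array (points), relative to the mean of the 4 wild-type arrays on control food (y axis, dotted line at 0), with the group mean as a line, in PPARα-null (KO) and wild-type (WT) mice on Wy14643 (Wy) or control food. On Wy14643, wild-type arrays lie at -1.89 to -1.69 for complement and at -1.08 to -0.96 for coagulation, and the PPARα-null arrays of both diets lie within 0.17 of the line.

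No member was dim: 10 genes had a mean log2 level between 6 and 10 and 27 had one of 10 or more. The 10 dimmer genes had a median difference of -2.26 with 8 called, and the 27 brighter ones -0.93 with 22 called. The 7 brightest, at 12 or more (Fga, Fgb, Fgg, F2, Kng1, Plg and Serpinc1), had a median of -0.72 and none fell beyond -0.85. All 7 are coagulation genes, and the part of probe set level in the difference between the cascades was not tested. Because a mean over all arrays is itself pulled down by a fall on Wy14643, these bands describe the probe sets and no order of the proteins.

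Several members are neighbours on a chromosome. By the order of protein-coding genes in the RefSeq annotation 7 pairs were adjacent, and within each array the log2 ratio of the pair was taken. F7 and F10 lie next to each other on chromosome 8, and the ratio of F7 to F10 differed by -1.84 ± 0.17 (SE) in wild-type mice on Wy14643 from that on control food. For F11 over its neighbour Klkb1, also on chromosome 8, the change was -1.70 ± 0.14. C2 over Cfb on chromosome 17 changed by -1.12 ± 0.11, and C1s1 over C1ra on chromosome 6 by -0.87 ± 0.10. In these 4 pairs the arrays of the 2 diets did not overlap (exact two-sided permutation test, p = 0.0286 each, the smallest that 4 against 4 arrays allow, 0.05 after Benjamini-Hochberg over 7 pairs). The ratio of C8b to C8a on chromosome 4 changed by -0.20 ± 0.17 (exact p = 0.314), that of Fgg to Fga on chromosome 3 by -0.11 ± 0.06 (exact p = 0.143) and that of Fga to Fgb by -0.02 ± 0.06 (exact p = 0.886). These 3 changes were not distinguishable from the spread between mice. The pairs were set by position alone, although the size of each gene's response was known when they were chosen. In each ratio the gene with the larger wild-type fall was put first, so that the negative sign of the changes follows from that order. The sizes rest on the brightest probe set of each gene. In the wild-type response F10 differed by -1.25 and -1.48 on its other probe sets, against -0.94. C2 differed by -1.68 and -1.71 on its others, against -1.96. Ratios with these other probe sets were not taken.

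**Figure D4:**
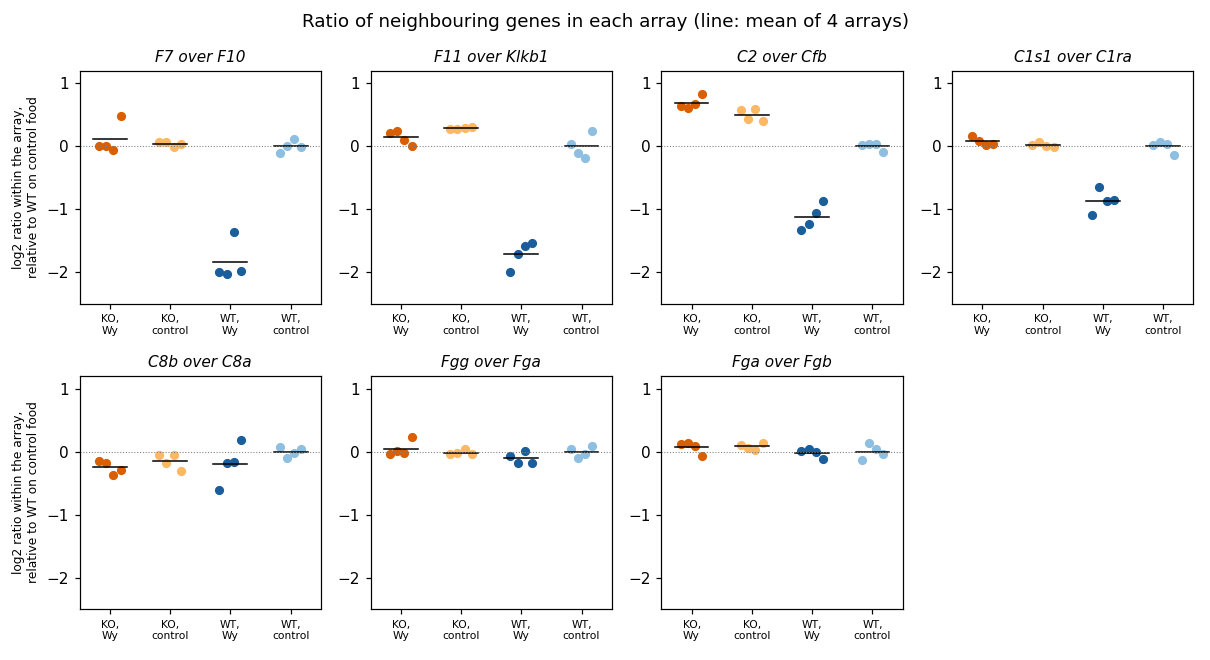
Log2 ratio of 7 pairs of neighbouring genes within each array (points), relative to the mean of wild-type mice on control food (y axis, dotted line at 0), with the mean of the 4 arrays of each group as a line, in PPARα-null (KO) and wild-type (WT) mice on Wy14643 (Wy) or control food. In wild-type mice on Wy14643 the ratio is displaced by -1.84 for F7 over F10 and -1.70 for F11 over Klkb1, and by -0.02 for Fga over Fgb.

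The bases upstream of the start site were searched for 6 short motifs. Promoters from RefSeq (GRCm38.p6) were listed for 29 of the 37 genes, and not for C2, Cfb, Cfi, Kng1, Masp1, Plg, Proc and Serping1. The 250 bases before each start were read on both strands. AGGTCA, the hexamer that nuclear receptors such as PPARα bind as a repeat, was present in 9 of the 29 genes (31.0%), against 15.8% of all 27025 genes listed. In 7 of them (C6, C8b, F2, F5, F7, F10 and Mbl2) it lay within 60 bases of the start, against 3.94% of all genes, a window chosen after the positions had been seen. GTTAAT, a core of sites for the liver factor HNF1, was present in 9 (C1ra, C4bp, C5, C8a, C8b, F13b, Fga, Fgb and Vtn), against 7.49% of all genes. TTGCNNAA, a core of C/EBP sites, was in 7 members (24.1%) and 10.8% of all genes, and TTCNNNGAA, the core of STAT sites, in 6 (20.7%) and 8.13%. TGTTTAC, a FOXA site, was found in F11 and Klkb1 alone, against 3.54% of all genes. CAAAGTCC, the only form of an HNF4 motif that was searched, was in 0 members and 1.38% of all genes. A match of letters is no measured binding. The median difference of the genes with a motif and of those without it was -1.58 and -1.02 for AGGTCA, -1.27 and -1.04 for GTTAAT, -1.29 and -1.04 for TTGCNNAA, -0.64 and -1.27 for TTCNNNGAA and -2.14 and -0.996 for TGTTTAC, with no test.

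Upstream sequences are shown for 4 pairs of neighbours, as examples of neighbours whose ratio changed on Wy14643 (F7 and F10, F11 and Klkb1) and whose ratio did not change by more than the spread between mice (C8a and C8b, Fga and Fgb). Each runs 5′ to 3′ in the direction of the gene and ends at the base before its start, and capitals mark every match to the motifs above, on either strand. F7 (chr8:13025784-13026033, + strand) and F10 (chr8:13037058-13037307, + strand) both carry AGGTCA, as TGACCT, beginning at positions -34 and -30 from the start, with no other match, and fell by 6.86-fold and 1.92-fold.
F7: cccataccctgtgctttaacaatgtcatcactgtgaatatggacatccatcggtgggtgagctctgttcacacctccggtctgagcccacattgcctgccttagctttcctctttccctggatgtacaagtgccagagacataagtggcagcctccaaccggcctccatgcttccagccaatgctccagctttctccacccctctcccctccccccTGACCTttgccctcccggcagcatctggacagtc
F10: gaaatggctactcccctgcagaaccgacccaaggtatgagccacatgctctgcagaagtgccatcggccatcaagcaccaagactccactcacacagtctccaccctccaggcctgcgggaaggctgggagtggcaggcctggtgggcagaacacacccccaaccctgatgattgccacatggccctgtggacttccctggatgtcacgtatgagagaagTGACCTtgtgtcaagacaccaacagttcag
F11 (chr8:45262032-45262281, - strand) and Klkb1 (chr8:45294836-45295085, - strand) both carry the FOXA letters, as GTAAACA, at -25 and -21. The C/EBP core lies at -17 in F11, which fell by 7.95-fold, and at -177 in Klkb1, which fell by 2.44-fold.
F11: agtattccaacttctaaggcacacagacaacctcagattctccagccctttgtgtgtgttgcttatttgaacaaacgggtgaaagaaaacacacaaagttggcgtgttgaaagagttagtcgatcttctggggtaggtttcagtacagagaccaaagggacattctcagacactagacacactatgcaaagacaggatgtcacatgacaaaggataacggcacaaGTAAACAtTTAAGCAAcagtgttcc
Klkb1: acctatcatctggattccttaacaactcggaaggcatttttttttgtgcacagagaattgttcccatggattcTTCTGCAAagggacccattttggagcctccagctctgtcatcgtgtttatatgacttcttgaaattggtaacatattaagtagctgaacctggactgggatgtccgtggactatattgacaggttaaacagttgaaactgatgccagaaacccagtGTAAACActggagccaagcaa
C8a (chr4:104876399-104876648, - strand) and C8b (chr4:104766067-104766316, + strand), the genes with the largest falls, differ in this stretch. Both hold the HNF1 core, at -107 and -206, C8a holds a STAT core at -228 and C8b holds AGGTCA at -20.
C8a: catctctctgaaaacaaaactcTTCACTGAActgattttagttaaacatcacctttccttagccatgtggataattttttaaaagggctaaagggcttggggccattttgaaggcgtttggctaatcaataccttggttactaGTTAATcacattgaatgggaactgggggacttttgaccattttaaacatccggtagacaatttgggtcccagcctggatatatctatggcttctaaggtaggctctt
C8b: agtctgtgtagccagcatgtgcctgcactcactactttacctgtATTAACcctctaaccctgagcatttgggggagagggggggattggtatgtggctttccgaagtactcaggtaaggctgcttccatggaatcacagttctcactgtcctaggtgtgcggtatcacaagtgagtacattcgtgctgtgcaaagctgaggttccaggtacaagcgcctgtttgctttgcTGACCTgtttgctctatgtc
Fga (chr3:83025903-83026152, + strand) and Fgb (chr3:83049864-83050113, - strand), with the smallest falls of the fibrin genes, hold the same 3 motifs in the same order. The STAT core is at -234 and -162, the C/EBP core at -135 and -80, and the HNF1 core at -43 and -29.
Fga: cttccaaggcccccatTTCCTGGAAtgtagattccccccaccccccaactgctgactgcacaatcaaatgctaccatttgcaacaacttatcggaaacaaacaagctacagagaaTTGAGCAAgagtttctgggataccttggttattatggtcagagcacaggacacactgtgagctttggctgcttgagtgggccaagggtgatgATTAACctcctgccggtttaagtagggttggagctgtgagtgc
Fgb: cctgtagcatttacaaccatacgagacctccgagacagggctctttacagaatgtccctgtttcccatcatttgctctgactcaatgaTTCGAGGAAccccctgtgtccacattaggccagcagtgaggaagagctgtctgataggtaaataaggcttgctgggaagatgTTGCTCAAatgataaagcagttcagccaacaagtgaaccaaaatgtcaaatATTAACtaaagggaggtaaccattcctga

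In PPARα-null mice the same diet called 0 of the 37 genes in either direction, against 0.0275% of all genes. At an unadjusted p under 0.05 there were 3, where the lowest adjusted p of any member was 0.435, and the differences ran from -0.39 to 0.08 with a median of -0.05. C6 differed most, with 10.16, 10.34, 9.79 and 10.37 in PPARα-null mice on Wy14643, against 10.50, 10.23, 10.81 and 10.69 on control food. The arrays overlapped (-0.39, adjusted p = 0.546). C1s1 averaged 10.50 ± 0.09 on Wy14643 and 10.58 ± 0.08 on control food, C8b 10.91 ± 0.08 and 11.11 ± 0.14, and F7 9.24 ± 0.17 and 9.24 ± 0.07. Of the differences 28 were below 0 and 9 above, and the groups did not overlap for 8 genes, all lower on Wy14643, among them Serpinf2 (-0.21) and Fga (-0.16). None of the 8 passed the test. The median difference of all genes was 0.009. No share over all genes is given for an unadjusted p under 0.05, for differences below 0 or for arrays without overlap.

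The difference of the responses, the PPARα-null response minus the wild-type response, was called for 29 of 37 genes, all positive, against 4.62% of all genes called in that direction. In the fit restricted to probe sets with a mean log2 above 6, 736 of 5170 genes were called in that direction. The difference of the responses reached 3.26 for C8b, 3.17 for C8a, 3.06 for C1s1, 2.82 for F11 and 2.78 for F7. By cascade 17 of 18 complement genes were called, with a median of 1.90, and 12 of 19 coagulation genes, with a median of 0.83. Masp2, not called in the wild-type response, passed here at 0.59 (adjusted p = 0.00824), a call that was lost in 12 of 16 refits that left out an array (0.52 to 0.66), all but those without replicate 4 of wild type on Wy14643, replicate 2 or 3 of PPARα-null on Wy14643, or replicate 2 of wild type on control food. It was also lost with an offset of 16 (0.58), median centring (0.55) and array weights (0.57), and the dimmer Masp2 probe set, at 0.36, was not called (adjusted p = 0.215). F2 passed at 0.60 and lost its call in 4 of 16 such refits, those without replicate 1 of wild type on Wy14643, 3 of PPARα-null on Wy14643, 4 of wild type or 4 of PPARα-null on control food (lowest 0.56), and with median centring (0.56). The 8 genes not called were Mbl1, F9, F12, Fga, Fgb, Plg, Pros1 and Serpinc1. Fga at 0.58 and Fgb at 0.57 had adjusted p of 0.00241 and 0.0015 and fell just short of the 1.5-fold limit, while Pros1 stood at -0.06 and Mbl1 at 0.07.

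On Wy14643, PPARα-null livers held higher levels than wild-type livers for 29 of the 37 genes and lower levels for 0, against 7.13% of all genes called higher. This comparison shares its arrays with those above. In the fit restricted to probe sets with a mean log2 above 6, 842 of 5170 genes were called higher. C8a had 12.10, 12.14, 12.16 and 12.15 in PPARα-null mice, against 8.52, 8.55, 8.93 and 8.54 in wild-type mice (11.3-fold higher, adjusted p = 5.4e-14). For F11 the levels were 10.19, 10.26, 10.09 and 10.15 in PPARα-null mice, against 6.78, 6.99, 7.24 and 7.25 in wild-type mice (8.62-fold higher). Differences ran up to 3.50, and Mbl1 alone was below 0 (-0.15, adjusted p = 0.326).

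Between the genotypes on control food 1 of 37 genes was called, against 0.544% of all genes. At an unadjusted p under 0.05 there were 12, of which 8 were complement genes, with no share over all genes given. The median difference of the 37 was 0.02. Pros1 had 7.85, 7.79, 8.01 and 7.53 in PPARα-null mice, against 6.90, 7.14, 7.11 and 7.17 in wild-type mice, with no overlap (1.64-fold higher, 0.71, adjusted p = 0.00575). On Wy14643 it had 7.59, 7.87, 7.87 and 7.56 in PPARα-null mice, against 7.13, 7.11, 6.81 and 7.22 in wild-type mice (0.66, adjusted p = 0.000539), so that the gene that did not pass the test for a response to the diet was higher in PPARα-null livers on both diets. The call on control food was lost in 7 of 8 refits that left out an array, all but that without replicate 4 of PPARα-null mice, with differences of 0.64 to 0.80, and the call on Wy14643 was lost without replicate 3 of wild type (0.57). Among the other 36, C6 (0.75) and C2 (0.52) were farthest from 0 and did not pass (adjusted p = 0.105 and 0.0953), although no array of C2 in PPARα-null mice, 9.44, 9.45, 9.47 and 9.27, reached down to those of wild-type mice, 8.87, 8.92, 8.86 and 8.89.

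Further genes of the 2 cascades were taken from a list of 45, of which 36 had a probe set of their own. This list too was chosen with earlier results of these data known. In the wild-type response 15 were called lower and 0 higher, against 6.74% of all genes called lower. The median was -0.31, where that of all genes was -0.03. Liver-secreted relatives of the members were among the 15, such as Proz, a vitamin K-dependent cofactor, at -1.79, and Serpina10, the inhibitor that protein Z serves, at -0.96. Hgfac, a protease related to factor XII, stood at -1.69, Cfhr2, a factor H-related protein, at -1.48, and Hrg, the histidine-rich glycoprotein that binds plasminogen, at -1.13. Genes that handle clotting factors before secretion fell as well, with Ggcx, the vitamin K-dependent carboxylase, at -0.86, and Lman1 and Mcfd2, the receptor pair that carries factors V and VIII out of the endoplasmic reticulum, at -0.67 and -0.66. Vkorc1, which recycles vitamin K, differed by -0.47 and missed the fold limit. The genes of the 3 chains of C1q, which tissue macrophages make, were lower, at -0.60 (C1qa), -0.81 (C1qb) and -0.88 (C1qc). The Kupffer cell markers given above had a median of -0.83. Cfp, the properdin that stabilizes the alternative convertase, was called lower at -0.90. Among the genes not called were F3 (0.60), Vwf (0.30), F8 (0.02) and Clu (-0.31). In the PPARα-null response 0 of the 36 were called, against 0.0275% of all genes. The difference of the responses was called for 9, all positive, against 4.62% of all genes called in that direction.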

How the data were processed

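Each liver was measured on its own 1-colour Affymetrix expression array. The intensity of every probe set had been computed by the authors with GCRMA 2.20, per the submitters' processing notes, a method that adjusts background by probe sequence and normalizes quantiles. The deposited intensity was on a linear scale (array medians of 4.42 to 4.72), and its log2 was taken without offset, although log2 values had been planned for. The sources differ on the RNA amount labelled. Of 45037 probe sets, without 64 controls, 34945 named 1 gene in the platform annotation. limma 3.58.1 (R 4.3.3) was fitted with 1 mean per group over all 16 arrays. P-values are two-sided and Benjamini-Hochberg adjusted over all probe sets, and the fit was tested on simulated data. Pairs of neighbours were compared by exact permutation (scipy 1.17.1). Named in full were up to 3 called, non-overlapping genes per role, and genes called between genotypes on control food. The others are named only to account for every gene. The members and lists were chosen with earlier results of these data known. Settings tried were filters, offset, scaling, weights, moderation, thresholds, the replicate block and leaving out each array.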

Additional observations from a re-analysis of the deposited data

Results flagged for a closer look

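Of 148 groups of 4 arrays, 37 genes in 4 groups, 12 held an array whose gap to its nearest neighbour exceeded Dixon's 95% limit for 4 values. Chance alone flags about 1 group in 20. The values are log2 levels. In PPARα-null mice on Wy14643, replicate 4 was set apart for C1s1 (10.36, with the nearest array at 10.55), F7 (9.48, nearest 9.18) and Fga (12.99, nearest 13.21), and replicate 3 for F5 (10.83, nearest 10.70). In PPARα-null mice on control food, replicate 4 was set apart for C2 (9.27, nearest 9.44) and Mbl2 (10.26, nearest 10.46), replicate 2 for Cfb (11.09, nearest 10.96) and replicate 1 for F9 (10.57, nearest 10.50). In wild-type mice on Wy14643, replicate 3 was high for C8a (8.93, nearest 8.55) and F7 (6.98, nearest 6.29), replicate 4 was high for Masp2 (9.19, nearest 8.93) and replicate 2 was low for F12 (10.07, nearest 10.35). Replicate 4 of PPARα-null mice on Wy14643 also had the lowest array weight of the 16 (0.408, where the highest was 1.33).

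The response to Wy14643 differed between PPARα-null and wild-type mice by an interaction test for 29 genes, in each as a positive log2 difference of the PPARα-null response minus the wild-type response. It was above 2 for C8b (3.26), C8a (3.17), C1s1 (3.06), F11 (2.82), F7 (2.78), C9 (2.33), C6 (2.26), C1ra (2.13) and Mbl2 (2.10). Between 1 and 2 it stood for C2 (1.97), C4bp (1.93), Masp1 (1.88), Cfi (1.44), Serpinf2 (1.37), Klkb1 (1.26), C8g (1.11), Serpind1 (1.10) and C5 (1.10), and below 1 for F13b (0.98), F5 (0.97), Proc (0.89), Serping1 (0.88), F10 (0.87), Kng1 (0.83), Vtn (0.83), Fgg (0.74), Cfb (0.67), F2 (0.60) and Masp2 (0.59).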

How the results depend on the processing

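Counts of called genes are given for the wild-type response, PPARα-null against wild-type mice on Wy14643, and the difference of the responses. They were 30, 29 and 29 as reported. They stayed at 30, 29 and 29 with trend and robust moderation, with a filter at a mean log2 of 4 or of 6, and when any probe set of a gene could carry the call. They were 30, 29 and 28 with an offset of 16, 30, 29 and 27 with median centring, 34, 28 and 30 with quantile normalization, and 30, 29 and 30 with array weights. With an adjusted p under 0.05 and no fold limit they were 35, 36 and 34. A test against the 1.5-fold limit itself (treat) left 22, 22 and 18, and the genes it dropped from the wild-type response were Cfb, F2, Fga, Fgb, Fgg, Kng1, Serping1 and Vtn. Leaving out each array gave 30 to 33, 28 to 30 and 27 to 31. Among these refits, F2 on Wy14643 was called without replicate 4 of PPARα-null mice (0.59), and Fga, Fgb and Plg passed in the difference of the responses in 5, 6 and 5 of 16 refits (up to 0.64, 0.60 and 0.61). Under each of these settings 0 genes were called in the PPARα-null response.

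The single call on control food, Pros1, became 0 when only the groups compared were fitted (adjusted p = 0.0185) and with treat, and 0 to 1 when an array was left out. Deviations from the group mean, over probe sets above a mean log2 of 4, correlated at -0.123 to 0.19 between same-numbered arrays of different groups. Arrays of different numbers were not compared in this way, so that a pairing of the mice by replicate number was not settled. With the replicate block the counts were 30, 29 and 29, with 0 on control food (Pros1, adjusted p = 0.0197). The difference of Pros1 in the wild-type response, -0.01, turned to 0.003 with median centring and ran from -0.072 to 0.073 when an array was left out. Its difference of the responses, -0.06, ran from -0.14 to 0.0145. The cause was not tested. No other gene changed direction in the 3 comparisons. The median of the brightest band was -0.93 from a log2 level of 10, and -0.72 from 12.

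Small differences are limited by 4 mice per group, and 5 of the 7 genes not called in the wild-type response had an adjusted p under 0.01 and missed the fold limit alone. The normalization evens out the arrays, and a shift common to most genes would be hidden. The deposited values carry no flag for background or saturation, so that neither was screened for.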
